A study of Mus musculus with 6 samples.

Results

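Arginine sits at the branch between nitric oxide production by immune cells and urea production by hepatocytes, and the 10 genes described here code for enzymes and carriers on both sides of it. They are Nos2, the inducible nitric oxide synthase, the urea cycle genes Nags, Cps1, Otc, Ass1, Asl and Arg1 with the mitochondrial ornithine carrier gene Slc25a15, the arginine transporter gene Slc7a2, and Odc1, which starts polyamine synthesis. They were chosen by name, with the difference of some of them between the groups already known from these libraries, so their differences are a description. No p-value is given for them, and nothing is read from which of them passed a threshold. All 10 were among the 17119 gene symbols of the count table, and all 10 were among the 12706 genes that passed the filter on low counts.

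RNA was sequenced from unfractionated liver of mice kept for 12 weeks on a high-fat high-cholesterol diet, which is used to produce fatty liver with inflammation. All animals carried the Cre recombinase iCre driven by Clec4f, a gene of the macrophages that reside in liver, known as Kupffer cells. The 3 control livers (Clec4f-iCre;Cebpb+/+, wild-type littermates) had both Cebpb alleles intact, and the 3 heterozygous livers (Clec4f-iCre;Cebpbfl/+) had 1 floxed allele of Cebpb, which encodes the transcription factor C/EBPβ. The deletion is thus meant for Kupffer cells only, while most RNA of whole liver comes from hepatocytes. No age or sex is given in the labels used here, and whether each sample is a separate animal is not stated. The tests thus rest on the spread among these samples. Within groups that spread was wider than read counting alone gives (chi-square per degree of freedom 22.1 to 83.6 between pairs of libraries). Whether it is technical or lies between animals was not tested.

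In the urea cycle, carbamoyl phosphate made from ammonia joins ornithine to form citrulline, which is turned into arginine and then split by arginase into urea and ornithine. The cycle runs mainly in hepatocytes near the portal vein. Activated macrophages take up arginine and use it for nitric oxide through Nos2, whereas alternatively activated mouse macrophages express Arg1, so the ratio of these genes is often used to describe macrophage state. In liver, Arg1 is among the abundant hepatocyte transcripts, so its level in whole tissue is mostly not a macrophage reading.

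The libraries held 16895322 to 17750755 counts. Cebpb itself measured 506, 308 and 340.4 CPM (read counts scaled to a common library size) in controls 1, 2 and 3 and 204, 498 and 269 CPM in heterozygous livers 1, 2 and 3. The groups overlapped, and whole-liver RNA checks the deletion only weakly. Hepatocyte markers summed to 111846 to 155543 CPM in control and 120313 to 149921 CPM in heterozygous livers, with none of the 8 at 0. The 9 monocyte and macrophage markers summed to 387 to 735 CPM in control and 170 to 208 CPM in heterozygous livers, with none at 0 in any library. Control replicate 1 stood apart in acute phase genes, at a mean log2 CPM of 10.43 over 18 genes against 8.21 to 9.12 in the other 5 libraries. CPM throughout include trimmed mean of M-values (TMM) factors. Each log2 fold change is that of heterozygous against control livers and carries its SE.

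Nos2 was the lowest of the 10 genes in all 6 libraries and the one with the widest difference between the groups. Controls 1, 2 and 3 had 83, 117 and 69 raw counts, and heterozygous livers 1, 2 and 3 had 9, 5 and 16. These correspond to 5.06, 6.37 and 3.78 CPM and to 0.524, 0.303 and 0.918 CPM. Every control library lay above every heterozygous library, and the lowest control value was 4.12 times the highest heterozygous value. The means were 5.07 ± 1.29 and 0.582 ± 0.311 CPM (SD, n = 3 each). The edgeR fit put the level 8.57-fold lower in heterozygous livers (log2 fold change −3.10 ± 0.39, 95% interval −3.99 to −2.21).

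Nos2 was the 1 of the 10 genes past an edgeR adjusted p of 0.05. The 10 genes were chosen with some of their differences known, so this is a description and no test of them. Over all tested genes 0.559% were lower and 0.0236% higher at that threshold. The groups did not overlap for Nos2 and for Ass1, 2 of the 10 genes, both lower; of all tested genes 11.3% were lower and 7.05% higher without overlap. The call of Nos2 was lost when control replicate 1, control replicate 2, heterozygous replicate 1 or heterozygous replicate 2 was left out. Its log2 fold change in those fits and in the fits without either remaining library stayed between −3.59 and −2.80.

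**Figure D1:**
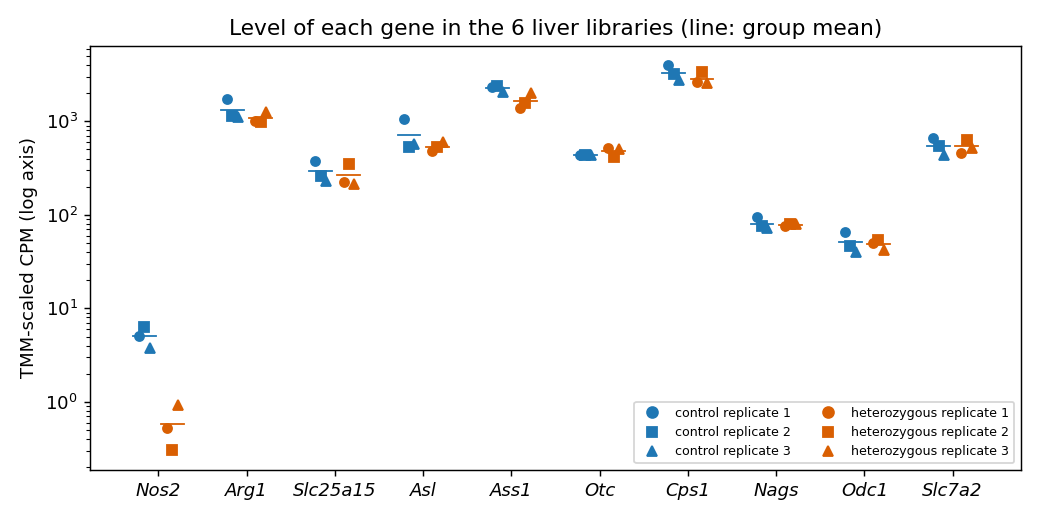
TMM-scaled CPM of each gene on a log axis, with 1 point per library and a line at each group mean (3 libraries per group). Nos2 lies between 0.303 and 6.37 CPM with separate groups, while the other 9 genes lie between 40.2 and 3982 CPM and, apart from Ass1, overlap.

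Monocyte and macrophage markers were lower in the heterozygous livers, and Kupffer cell markers were mixed. All 9 monocyte and macrophage markers were lower without overlap, and 4 of them (Cd68, Lyz2, Ccr2 and Spi1) passed edgeR's adjusted p of 0.05. Of all tested genes 11.3% were lower without overlap, and 0.559% were lower at that threshold. The marker lists, too, were chosen with earlier results of these data known. Of the 6 Kupffer cell markers, Clec4f, Vsig4, Marco and Cd5l were lower without overlap and Timd4 and Folr2 overlapped. Clec4f measured 48.6, 38.5 and 5.42 CPM in control and 4.31, 4.97 and 3.90 CPM in heterozygous livers. Control replicate 3 thus lay close to the heterozygous values. None of the 6 passed the edgeR threshold. DESeq2 called 3 of them lower, where it called 4.2% of all genes in either direction. Folr2, a folate receptor of resident macrophages, had a positive fold change (0.41 ± 0.42, edgeR adjusted p = 0.775). Mrc1, a mannose receptor of macrophages and sinusoidal endothelium, also overlapped (−0.10 ± 0.15, edgeR adjusted p = 0.872). Folr2 and Mrc1 are named here after their values were seen. In bulk tissue, fewer cells of a type and less RNA per cell cannot be told apart. Relative to the summed CPM of these 9 markers, Nos2 made up 1.31%, 0.866% and 0.811% in controls 1, 2 and 3 and 0.309%, 0.162% and 0.441% in heterozygous livers 1, 2 and 3. The groups did not overlap on this scale either, and the control mean was 3.27-fold higher. Against the 9 markers taken singly the control over heterozygous ratio of Nos2 ran from 2.89-fold (Ccr2) to 5.49-fold (Ly6c2), with separate groups for 8 of the 9 and overlap for Adgre1.

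Sums of other myeloid markers gave ratios of like size. Nos2 relative to the summed 6 Kupffer cell markers was 3.48-fold higher in control livers, at 2.12%, 1.72% and 2.17% against 0.446%, 0.237% and 1.04%. Nos2 relative to the summed 6 neutrophil markers was 3.27-fold higher. Neutrophil markers summed to 24.0 to 26.0 CPM in control and 7.34 to 11.9 CPM in heterozygous livers, and of the defining genes Ly6g and Mpo had at least 1 library at 0. These ratios were computed after the Nos2 values had been seen, and they do not say which cells held the Nos2 RNA.

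**Figure D2:**
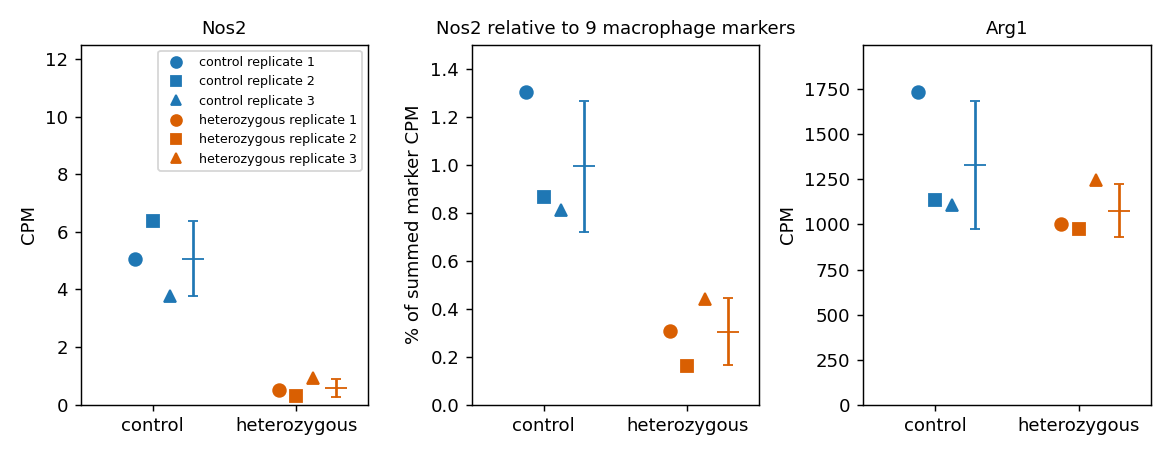
Nos2 in CPM (left), Nos2 as a percent of the summed CPM of 9 monocyte and macrophage markers (middle) and Arg1 in CPM (right), with 1 point per library and the mean with SD over 3 libraries beside each group. Nos2 separates the groups on both scales, whereas for Arg1 the heterozygous libraries at 977 to 1245 CPM overlap the control ones.

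The genes whose profile over the 6 libraries was nearest to that of Nos2 were myeloid or antigen-presentation genes. Likeness was measured as the root mean square difference of mean-centred log2 CPM, among 12063 other genes whose mean log2 CPM was 0 or above. Profiles were not scaled to a common spread, so the size of the group difference, already known for Nos2, enters this measure. Slamf8, a receptor of activated myeloid cells, was nearest at 0.43. It was followed by Fpr2, a formyl peptide receptor (0.51), Cd74, the invariant chain of MHC class II (0.53), Pla2g7, a secreted phospholipase (0.53), and Spic, a transcription factor of iron-handling macrophages (0.54). Fpr2 measured 3.72, 9.85 and 4.05 CPM in control and 0.815, 0.848 and 1.55 CPM in heterozygous livers. None of the other 9 members was near Nos2, the closest being Ass1 with a difference of 1.30 at rank 1051. Their far smaller fold changes largely fixed this distance, so it is no separate result.

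The urea cycle genes were expressed at a far higher level. Levels of different genes are compared here per kilobase of exon sequence, in control livers. Ass1 was highest at 1331 ± 98.5 CPM per kb, followed by Arg1 at 899.5 ± 239.9 and Cps1 at 597 ± 109. Asl stood at 241 ± 96.8, Otc at 103 ± 0.582, Slc25a15 at 84.9 ± 23.0 and Nags at 39.8 ± 5.78 CPM per kb. Outside the cycle, Slc7a2 measured 63.1 ± 13.1, Odc1 23.0 ± 6.12 and Nos2 1.18 ± 0.301 CPM per kb. In this order the neighbours Arg1 and Cps1, Otc and Slc25a15, and Slc25a15 and Slc7a2 differed by less than the sum of their SDs, and the other neighbours by more. Arg1 thus stood 762-fold above Nos2 per kilobase in control livers and 5380.3-fold above it in heterozygous livers.

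Ass1 and Otc had the lowest and the highest fold change among the 7 urea cycle genes, and their upstream sequences are shown for this reason. RefSeq promoter entries were matched for 5 of the 10 genes, and the 250 bases before the annotated start are given from build GRCm38.p6. Ass1 lies on the plus strand at chr2:31470020-31470269 and Otc on the plus strand at chrX:10252055-10252304. Capitals mark the GC box letters GGGCGG, searched on both strands.
Ass1: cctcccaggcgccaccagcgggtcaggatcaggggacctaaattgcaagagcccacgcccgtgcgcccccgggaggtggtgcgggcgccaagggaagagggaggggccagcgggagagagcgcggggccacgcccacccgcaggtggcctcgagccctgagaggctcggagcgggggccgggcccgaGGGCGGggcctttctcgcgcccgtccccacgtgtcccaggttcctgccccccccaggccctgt
Otc: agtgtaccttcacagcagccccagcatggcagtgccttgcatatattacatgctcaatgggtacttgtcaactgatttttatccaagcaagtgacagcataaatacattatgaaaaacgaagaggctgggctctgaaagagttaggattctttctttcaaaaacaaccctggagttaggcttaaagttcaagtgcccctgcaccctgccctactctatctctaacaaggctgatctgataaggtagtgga
The Ass1 window is 75.6% G and C and the Otc window 43.6%, against a median of 52.4% over 32851 RefSeq promoter windows of the same length. A GC box is found 63 to 58 bases before the start of Ass1 and in 32.7% of all windows, and none is in the Otc window. The letters TTGCNNAA, a core that C/EBP factors bind, were also searched on both strands. They are in neither window, nor in those of Nags, Odc1 and Slc25a15, and are in 9.56% of all windows. With no match of TTGCNNAA the 2 motifs could share none, and a match or its lack describes these letters in this window alone. No promoter entry was matched for Nos2, Arg1, Asl, Cps1 or Slc7a2, so these genes were not searched.

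Ass1, argininosuccinate synthase, joins citrulline and aspartate and sets the rate of arginine formation in many cells. It measured 2299, 2398 and 2072 CPM in control replicates and 1394, 1580.5 and 2032 CPM in heterozygous replicates. The groups did not overlap, but heterozygous replicate 3 came within 40.3 CPM of control replicate 3. The log2 fold change was −0.44 ± 0.16 (95% interval −0.79 to −0.08). It ranged from −0.60 to −0.31 with 1 library left out.

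Asl, which splits argininosuccinate into arginine and fumarate, measured 1051, 527 and 578 CPM in control and 476, 527 and 599 CPM in heterozygous livers. The groups overlapped, and 1 library, control replicate 1, carried the difference. The log2 fold change of −0.43 ± 0.26 became −0.03 without that library.

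Arg1, the liver arginase, measured 1738, 1138 and 1110.4 CPM in control and 1005, 977 and 1245 CPM in heterozygous livers. Again control replicate 1 was the high one, at 1.55 times the mean of the other control libraries, and heterozygous replicate 3 exceeded control replicates 2 and 3. The log2 fold change was −0.30 ± 0.19 (95% interval −0.74 to 0.13), −0.04 without control replicate 1, and 0.01 without it and heterozygous replicate 2. The interval includes 0 and reaches further below it than above, so equal levels were not shown. Among 12063 genes Asl ranked 54th in likeness to the Arg1 profile, at 0.13, and Nos2 ranked 12039th. The rank of Nos2 goes with its wide group difference, which this measure includes. Among the 5 nearest genes were Ubxn2b, Bet1l, Ifitm1 and Trim11, at 0.06 to 0.07. Their levels were far lower, with control means between 3.21 CPM (Ubxn2b) and 36.0 CPM (Trim11).

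The mitochondrial steps overlapped between the groups. Cps1, the ammonia-fixing carbamoyl phosphate synthetase, measured 3982, 3177 and 2789 CPM in control and 2606, 3375 and 2546 CPM in heterozygous livers (log2 fold change −0.22 ± 0.17, and −0.05 without control replicate 1). Control replicate 1 and heterozygous replicate 2 were the highest of their groups. Nags, which makes the activator that Cps1 needs, measured 94.1, 76.1 and 72.1 CPM and 75.5, 79.0 and 79.3 CPM (−0.05 ± 0.12, and 0.09 without control replicate 1). Otc, which forms citrulline, was the 1 member with a positive fold change. It measured 437, 438 and 433 CPM in control and 519, 417 and 503 CPM in heterozygous livers (0.14 ± 0.12, 95% interval −0.13 to 0.41). Its control libraries differed by no more than 1.01-fold, while heterozygous replicate 2 lay below all of them.

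Slc25a15, the carrier that returns ornithine to the mitochondrion, had a wide spread inside both groups. It measured 380.2, 263 and 231 CPM in control and 226, 351 and 214 CPM in heterozygous livers. Control replicate 1 and heterozygous replicate 2 were high, by 1.54 and 1.60 times the mean of the rest of their group. The log2 fold change of −0.14 ± 0.25 became 0.12 without control replicate 1 and −0.40 without heterozygous replicate 2.

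Over the 7 urea cycle genes 6 fold changes were negative and 1 positive, with a median of −0.22 against 0.00481 over all tested genes. Of the 7, 5 were highest in control replicate 1, the library that was also highest in acute phase genes. Heterozygous replicate 2 was the highest of its group in acute phase genes, at a mean log2 CPM of 8.98 against 8.21 and 8.29. Without control replicate 1 the median was −0.03, and without it and heterozygous replicate 2 together also −0.03, with single genes from −0.37 (Ass1) to 0.24 (Otc). The part of the acute phase in these values was not tested. Summed over the 7 genes, the cycle took 0.998%, 0.802% and 0.729% of scaled counts in control and 0.630%, 0.731% and 0.722% in heterozygous livers, so the groups overlapped.

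**Figure D3:**
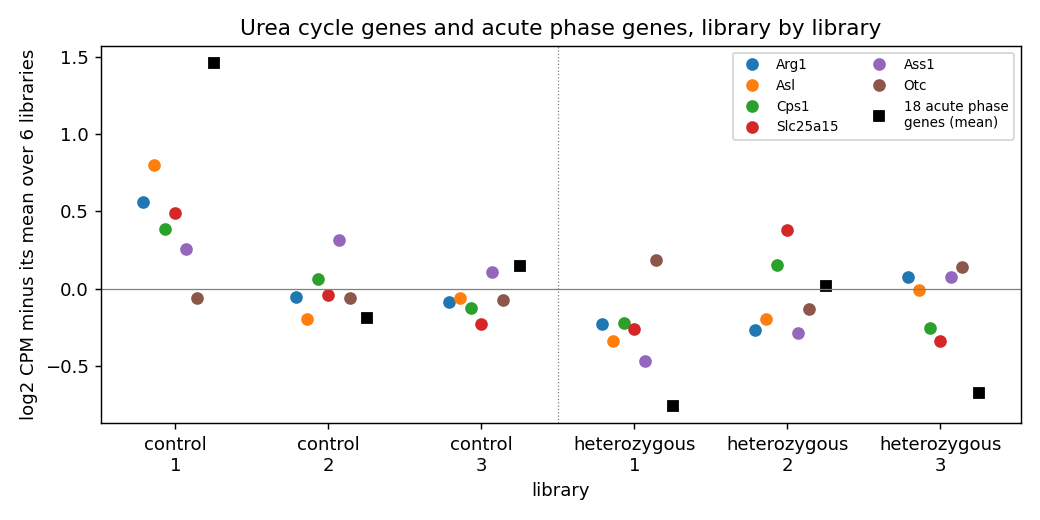
Log2 CPM of 6 urea cycle genes and the mean of 18 acute phase genes in each library, each minus its own mean over the 6 libraries (circles: genes, squares: acute phase mean). Control replicate 1 is highest for Arg1, Asl, Cps1, Slc25a15 and the acute phase mean, and Otc varies least.

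Hepatocyte zone markers were also read, since the urea cycle is periportal. The 8 periportal markers had a median log2 fold change of 0.02 and the 8 pericentral markers 0.05, and none of the 16 had separate groups, where 18.4% of all tested genes did. Periportal markers summed to 6427 to 8145 CPM in control and 6533 to 8089 CPM in heterozygous livers. Pericentral markers summed to 6469 to 10319 CPM and 6426 to 8892 CPM.

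Of the 21 ratios between 2 of the 7 cycle genes, 2 had separate groups, Otc to Ass1 and Otc to Arg1. Single genes had separate groups in 18.4% of all tested cases. No such share was taken for ratios of other genes, so nothing is read from the 2. Otc stood at 0.190, 0.182 and 0.209 of the Ass1 level in control and 0.372, 0.264 and 0.248 in heterozygous livers, a description chosen after these values were seen. Arg1 stood at 0.756, 0.474 and 0.536 of the Ass1 level in control and 0.721, 0.618 and 0.613 in heterozygous livers, with overlap. Otc stood at 0.110, 0.138 and 0.155 of the Cps1 level in control and 0.199, 0.124 and 0.198 in heterozygous livers, also with overlap. Nos2 lay at a log2 distance of −7.32, −6.61 and −7.26 from the mean of the 7 urea cycle genes in control and −9.75, −10.51 and −9.22 in heterozygous livers. The mean distance differed by −2.77 on the log2 scale, and with 1 library left out by −3.07 to −2.42. Log2 CPM of Nos2 differed by −2.96 and the urea cycle mean by −0.20. The distance thus largely restates the known Nos2 difference and is no separate result.

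**Figure D4:**
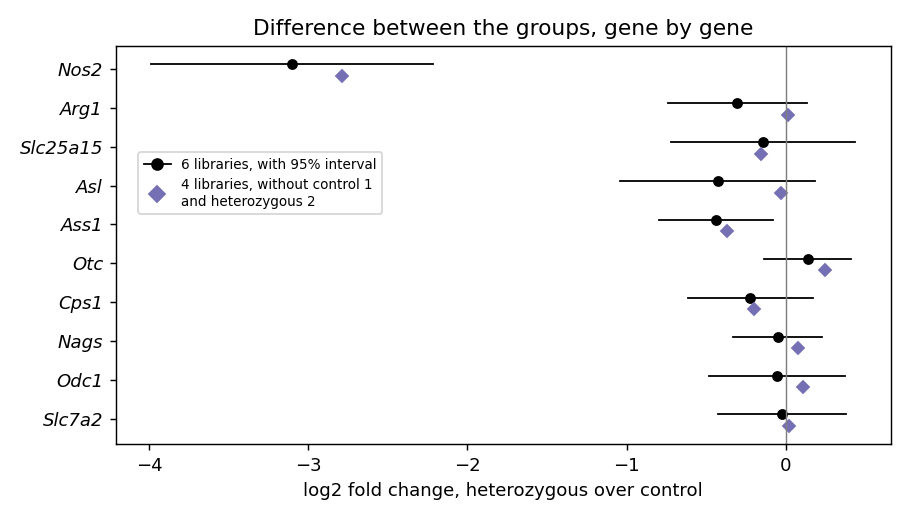
Log2 fold change of each gene, heterozygous over control, with its 95% interval over 6 libraries (circles) and the value over the 4 libraries left without control replicate 1 and heterozygous replicate 2 (diamonds). Nos2 stands at −3.10 and −2.79, and the other 9 genes lie between −0.44 and 0.24.

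The arginine transporter and the polyamine gene overlapped between the groups. Slc7a2 encodes CAT2, whose splice forms serve low-affinity uptake in hepatocytes and high-affinity uptake in activated macrophages, and counts per gene do not separate them. It measured 662, 542 and 436 CPM in control and 464, 634 and 519 CPM in heterozygous livers (log2 fold change −0.02 ± 0.18, 95% interval −0.42 to 0.38), and the fold change was 0.16 without control replicate 1. The order of the libraries was mixed, with heterozygous replicate 2 above control replicate 2. Odc1, ornithine decarboxylase, measured 66.1, 46.2 and 40.2 CPM and 50.3, 54.1 and 42.3 CPM (−0.06 ± 0.19). Control replicate 1 was again the highest, and without it the fold change was 0.20.

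Beyond the 10 genes, 95 others in 8 lists around arginine were examined, 89 of which were tested. None passed an edgeR adjusted p of 0.05, where 0.582% of all tested genes did. At an unadjusted p under 0.05, 15 were lower and 2 higher, or 19.1% of the 89 against 13.2% of all tested genes. Of the 15 lower genes, 7 were in 1 list, the pathway known to induce Nos2, so the share does not describe all 8 lists alike. DESeq2 called 5 of them lower (4.2% of genes over the table) and limma-voom 0 (0.362%). Fold changes were negative for 56 of the 89 and positive for 33, with a median of −0.10.

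Among 13 tested genes of nitric oxide synthesis and sensing, the median was −0.00367 and 1 had separate groups (7.69%, against 18.4% of all tested genes). Nos3, the endothelial synthase, measured 13.7, 5.06 and 6.57 CPM in control and 4.72, 6.24 and 7.74 CPM in heterozygous livers, with overlap (−0.43 ± 0.38, edgeR adjusted p = 0.731). Its sign turned positive without control replicate 1 (0.12). Gch1, which starts synthesis of the cofactor tetrahydrobiopterin, measured 140.2 ± 15.3 and 128 ± 3.83 CPM (−0.14 ± 0.11, edgeR adjusted p = 0.708). Gucy1a1, a subunit of the nitric oxide receptor guanylate cyclase, measured 11.1, 11.5 and 11.4 CPM against 5.71, 6.06 and 9.75 CPM (−0.66 ± 0.22, edgeR adjusted p = 0.206). Prkg1, the kinase downstream of it, had −0.66 ± 0.41 (edgeR adjusted p = 0.571). Nos1 was too low to be tested.

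The pathway known to induce Nos2 had 13 negative and 1 positive fold change among 14 tested genes, with a median of −0.50. It had 7 genes lower at an unadjusted p under 0.05 (50% of the 14, against 9% of all tested genes) and 6 lower with separate groups (42.9%, against 11.3%). Among the 9 monocyte and macrophage markers the shares were higher, at 77.8% and 100%, so such shares were not particular to this list. Ifngr1, the ligand-binding chain of the interferon gamma receptor, measured 30.6, 30.6 and 29.4 CPM in control and 20.4, 19.0 and 21.6 CPM in heterozygous livers. These values were tight within each group, but the edgeR adjusted p was 0.0539 (−0.57 ± 0.11), and it ran from 0.00684 to 0.243 over the alternatives. Irf8, a transcription factor of myeloid cells, measured 25.6, 26.5 and 24.1 CPM against 9.09, 14.1 and 16.6 CPM (−0.94 ± 0.20, edgeR adjusted p = 0.0728, 0.00303 to 0.245 over the alternatives). DESeq2 called both Ifngr1 and Irf8 lower.

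Irf1, which carries the interferon signal to the Nos2 promoter, measured 42.5, 78.1 and 56.4 CPM in control and 34.0, 40.8 and 53.4 CPM in heterozygous livers, and the groups overlapped (−0.47 ± 0.25, edgeR adjusted p = 0.505). Control replicate 2 was the highest library, as it was for Nos2, and without it the fold change was −0.21. The macrophage marker sum was lower in the same libraries, and its part in these values was not tested. Ifng was too low to be tested.

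Among 7 tested genes of alternative activation the median was −0.18. Chil3, a chitinase-like protein of such macrophages, had 15, 21 and 28 counts in control and 4, 0 and 4 in heterozygous livers (edgeR adjusted p = 0.0810). Clec10a, a lectin of macrophages and dendritic cells, measured 1.40, 1.41 and 1.70 CPM against 0.582, 0.303 and 0.344 CPM (−1.86 ± 0.39, edgeR adjusted p = 0.0685). The groups were separate for both, 28.6% of the 7, where 18.4% of all tested genes had separate groups. DESeq2 called both lower (adjusted p = 0.00723 and 0.0202), where it called 4.2% of all genes in either direction. All 9 monocyte and macrophage markers had separate groups and DESeq2 called 7 of them lower, so this was not particular to the list. Retnla was too low to be tested.

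Among 11 tested genes of arginine transport and other uses the median was −0.00103. Arg2, the mitochondrial arginase, had 20, 17 and 18 counts in control and 3, 7 and 5 in heterozygous livers, which is 1.04 ± 0.156 and 0.295 ± 0.125 CPM. The groups were separate at these low counts (−1.80 ± 0.45), and the edgeR adjusted p was 0.111, with 0.0923 to 0.390 over the alternatives. Slc7a6, a subunit of an exchanger of cationic and neutral amino acids, had 36, 26 and 28 counts against 6, 16 and 19 (−1.08 ± 0.44, edgeR adjusted p = 0.323). Slc7a1, the common arginine transporter CAT1, measured 1.90 ± 0.155 and 1.41 ± 0.372 CPM (−0.43 ± 0.31, edgeR adjusted p = 0.640).

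Genes that use ornithine gave small and mixed differences. Oat, the ornithine aminotransferase of pericentral hepatocytes, measured 311, 704 and 276 CPM in control and 423, 325 and 471 CPM in heterozygous livers (log2 fold change −0.08 ± 0.38, edgeR adjusted p = 0.968). Its sign turned positive without control replicate 2 (0.48). Of 7 tested genes of ornithine and proline metabolism, Pycrl, a pyrroline carboxylate reductase, had the smallest p, at 24.1 ± 3.38 and 30.9 ± 1.74 CPM (0.36 ± 0.13, edgeR adjusted p = 0.253). Prodh, proline dehydrogenase, had −0.43 ± 0.21 (edgeR adjusted p = 0.456). Of 11 polyamine genes, Dhps, which starts hypusine formation from spermidine, measured 8.50 ± 0.880 and 11.5 ± 0.407 CPM (0.44 ± 0.15, edgeR adjusted p = 0.224). Sat1, which acetylates polyamines for breakdown, measured 61.3 ± 3.40 and 49.5 ± 4.21 CPM (−0.31 ± 0.11, edgeR adjusted p = 0.250).

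Nitrogen supply to the cycle was described by 18 genes with a median of −0.02. Gpt2, an alanine aminotransferase, measured 654, 473 and 426 CPM in control and 291, 411 and 403 CPM in heterozygous livers (log2 fold change −0.49 ± 0.19, edgeR adjusted p = 0.318). Slc38a3, a glutamine carrier, had −0.37 ± 0.15 (edgeR adjusted p = 0.330). Glul, the glutamine synthetase of pericentral hepatocytes, measured 715, 1189 and 768 CPM against 974, 886 and 860.3 CPM (0.03 ± 0.19, edgeR adjusted p = 0.982), and its sign changed when single libraries were left out. Among 8 regulators of urea cycle genes, Creb1 (−0.26 ± 0.14, edgeR adjusted p = 0.485) and Nr3c1, the glucocorticoid receptor (0.24 ± 0.14, edgeR adjusted p = 0.530), had the smallest p-values.

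**Figure D5:**
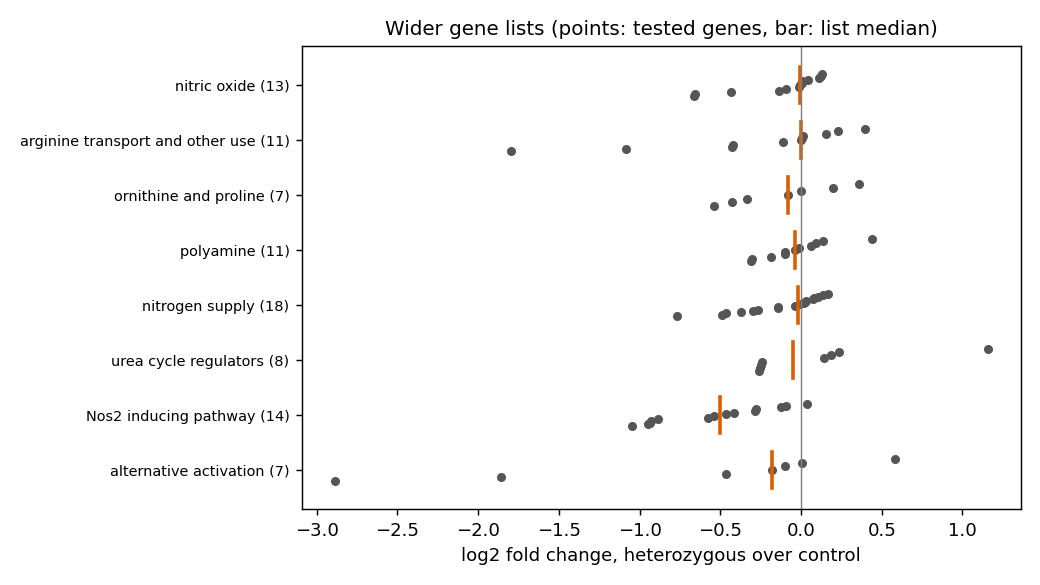
Log2 fold change of every tested gene in the 8 wider lists, heterozygous over control, with the number tested in parentheses, 1 point per gene and a bar at the list median. The list of the Nos2 inducing pathway has the lowest median, at −0.50, and the other 7 medians lie between −0.18 and −0.00103.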

How the data were processed

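Liver RNA of 6 samples was sequenced from 500 ng RNA in stranded mRNA libraries, per the labels' protocols. Trimmomatic 0.36, HISAT2 2.2.1.0, HTSeq 0.9.1 and the build GRCm39 are named in the submitters' processing notes; neither annotation nor strand setting is given in the sources used here. Deposited were raw counts per gene symbol, a unit read from the values. Sample titles gave the groups. In the genotype label the Cre driver reads Clec5f for replicates 2 and Clec6f for replicates 3, but the series design has Clec4f throughout and was followed.

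In R 4.3.3, edgeR 4.0.16 (filterByExpr, TMM, robust glmQLFit and glmQLFTest, no covariates) was fitted to all genes, with Benjamini-Hochberg adjustment at 0.05, and was tested on simulated data. SE is the absolute log2 fold change over the square root of F. Log2 CPM used a prior count of 2. Exon lengths are unions of GENCODE M21 basic exons (GRCm38), used as lengths only. Pycr3 was read as Pycrl and Tf as Trf, by RefSeq synonyms. The alternatives were RLE and upper-quartile scaling, no filter, 1 CPM in 3 samples, DESeq2 1.42.0, limma-voom (limma 3.58.1), a replicate block, a non-robust fit and libraries left out. Genes outside the 10 were named if past the threshold, else the 2 with the smallest p in a list, plus Nos3, Arg2, Slc7a1, Oat, Glul, Gch1 and Irf1, and the 5 nearest profiles of Nos2 and of Arg1; some genes this rule names are not reported here. The members and lists were chosen with earlier results of these data known. The remaining marker lists were Kupffer cells, neutrophils, endothelium and acute phase genes. Endothelial markers had a median log2 fold change of 0.07, Kupffer cell markers −0.90, neutrophil markers −1.48, hepatocyte markers 0.02 and acute phase genes −0.68.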

Additional observations from a re-analysis of the deposited data

How the results depend on the processing

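Of all tested genes, edgeR called 74, against 37 with upper-quartile scaling, 211 with no filter on low counts, 48 with at least 1 CPM in 3 samples, 534 in DESeq2, 46 in limma-voom, 20 with a non-robust fit and 4 without control replicate 1 and heterozygous replicate 2 together. With single libraries left out it called 0 to 122: 4, 6 and 20 without control replicates 1, 2 and 3, and 0, 0 and 122 without heterozygous replicates 1, 2 and 3. The fits with 0 calls had 1104 and 1601 genes at an unadjusted p under 0.05. Of the 10 genes, 1 or 0 was called in those fits, and 0 without control replicate 1 and heterozygous replicate 2 together. Nos2 was called in 9 of 15 alternatives, and its log2 fold change ran from −3.59 to −2.79. With the replicate number as a block edgeR called 0 genes (1427 at an unadjusted p under 0.05) and 0 of the 10. The deviations of same-numbered libraries correlated at −0.21, −0.31 and 0.19, so the numbers were not taken as pairs. The wider lists gained 2 calls with no filter (2 in the Nos2 inducing pathway) and 5 in DESeq2 (3 in that pathway, 2 in alternative activation). Without control replicate 1 the sign turned for Nags (0.093), Odc1 (0.20), Slc7a2 (0.16) and Slc25a15 (0.12). Without it and heterozygous replicate 2 it turned for Arg1 (0.015), Nags (0.077), Odc1 (0.11) and Slc7a2 (0.020). Odc1 turned without heterozygous replicate 3 (0.040) and Slc7a2 without heterozygous replicate 1 (0.089) or 3 (0.0076). Among the wider list genes named above, signs turned for Glul (−0.090 to 0.29 with single libraries out, −0.080 with 2 out), for Nos3 (−0.69 to 0.12 with single libraries out, 0.11 with 2 out) and for Oat (0.036 in limma-voom, 0.048 with the replicate block, −0.32 to 0.48 with single libraries out). Signs of the other wider list genes are not given. The cause was not tested. Counts of 5 to 16 limit the precision of Nos2 in heterozygous livers.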
